A study of Homo sapiens with 8 samples.

Results

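The genes described here are 33 genes of homologous recombination and Fanconi repair, chosen by gene symbol, including the linked replication checkpoint genes and the mismatch sensor MSH6. All 33 were found among 40693 gene symbols, and all 33 passed the filter on low counts. RNA sequencing was done on total RNA of SW620 and SW480, established human colorectal adenocarcinoma lines, SW620 (Dukes' C) from a metastasis and SW480 (Dukes' B) from the primary tumour. In SW620, FOXA2, a pioneer transcription factor of endoderm, was lowered with a short hairpin RNA in 3 libraries (shFOXA2), set against 3 libraries of the same line carrying a control hairpin (shNC). Both hairpins were driven by U6 from a lentiviral vector in stable populations kept by puromycin selection, and the sample titles point to number 1 of the 2 listed FOXA2 hairpins, so the comparison rests on 1 hairpin. Untreated SW620 and untreated SW480 gave 1 library each.

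Total counts ran from 7478411 to 13076566 in the 6 hairpin libraries and were 95935348 in SW620 and 72323506 in SW480. Levels below are in CPM, counts set relative to the TMM-scaled library total. FOXA2 had 30.3, 29.3 and 22.2 CPM in shFOXA2, against 52.5, 49.0 and 51.9 CPM in shNC, so the knockdown was partial (log2 fold change -0.91, SE 0.086, adjusted p = 6.88e-10). Relative to plain library totals, the colon epithelial markers summed to 8294 to 8670.0 CPM in shFOXA2, 8393 to 8884 in shNC, 6162 in SW620 and 6261 in SW480, with CDX1 at 0 in all libraries except that of SW620, and with GPA33 at 0 in shFOXA2 replicate 2. The 13 fibroblast, endothelial and leukocyte markers summed to 39.8 to 47.9 CPM in shFOXA2, 29.4 to 36.3 in shNC, 26.0 in SW620 and 8.46 in SW480, and COL1A2 and COL3A1 were at 0 in all 8 libraries. The hairpin sums did not overlap, with LYZ (0.85), COL1A1 (1.06) and LUM (0.53) higher in shFOXA2 on the log2 scale, and the part of these genes in the results below was not tested. Nothing in the labels states that replicate libraries were grown as separate cultures, so p-values measure only the spread between these libraries, which may be technical.

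Homologous recombination copies an intact sister chromatid to mend a broken one. Nucleases first cut back an end to leave a 3′ overhang, BRCA1, PALB2 and BRCA2 prepare it to invade the sister, and helicases and nucleases then undo the joined molecules. The Fanconi pathway handles crosslinks between the strands of DNA: a core ubiquitin ligase marks the FANCD2-FANCI clamp, which opens the way to cutting and recombination. ATR and CHEK1 slow the cell cycle while forks are stalled. Most of these genes are known to be expressed mainly as cells enter and pass through S phase.

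In SW620 with the FOXA2 hairpin, 16 of the 33 genes fell and 4 rose, with a median log2 fold change of -0.16 against 0.0051 over all tested genes. A gene was called changed at an adjusted p under 0.05 in edgeR's quasi-likelihood test over 16100 genes. Over all of these, 19.8% were lower and 19.2% higher, beside 48.5% and 12.1% of the 33. Among 46 other tested genes of the same pathways these shares were 23.9% and 10.9%. The 33 were chosen with earlier results of these data known. The largest falls were those of RMI2, a subunit of the BLM helicase complex (log2 -1.15), the resection nuclease DNA2 (-0.56), the checkpoint kinase CHEK1 (-0.52), the motor protein RAD54L (-0.50) and the clamp subunit FANCI (-0.46). The genes that rose were the core complex subunits FANCE (0.36) and FANCB (0.26), the bridging protein PALB2 (0.18) and the checkpoint mediator CLSPN (0.17).

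Apart from RMI2, which was 2.22-fold lower, the changes were modest. DNA2 was 1.48-fold lower, and FANCE, the largest rise, was 1.28-fold higher. The highest shFOXA2 value was below the lowest shNC value for 15 of the 33 genes, and the groups were apart in the opposite direction for 4, where 24.5% and 24.2% of all tested genes did so. The median of the 33 genes, set against the shNC mean of each gene on the log2 scale, was -0.17, -0.19 and -0.21 in the shFOXA2 libraries and 0.041, -0.030 and -0.0054 in the shNC libraries. Without shFOXA2 replicate 1 the median log2 fold change of the 33 genes was -0.24, the farthest from the value over all 6 libraries when any 1 was left out. The number called higher was 1 without shFOXA2 replicate 2 and 2 without shFOXA2 replicate 1 or 3 or shNC replicate 1 or 2, and it was 0 with the DESeq2 Wald test, which gave 4 at an unadjusted p under 0.05, where edgeR gave 5. With no filter on low counts it was 1, FANCE. BRCA1, CHEK1, DNA2, FANCA, FANCI, RAD54L and RMI2 were called lower under all 17 alternative settings, including a test against a 1.2-fold change that left 7 genes lower and 0 higher. In that test 7.28% of all tested genes were lower and 6.40% higher.

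**Figure D1:**
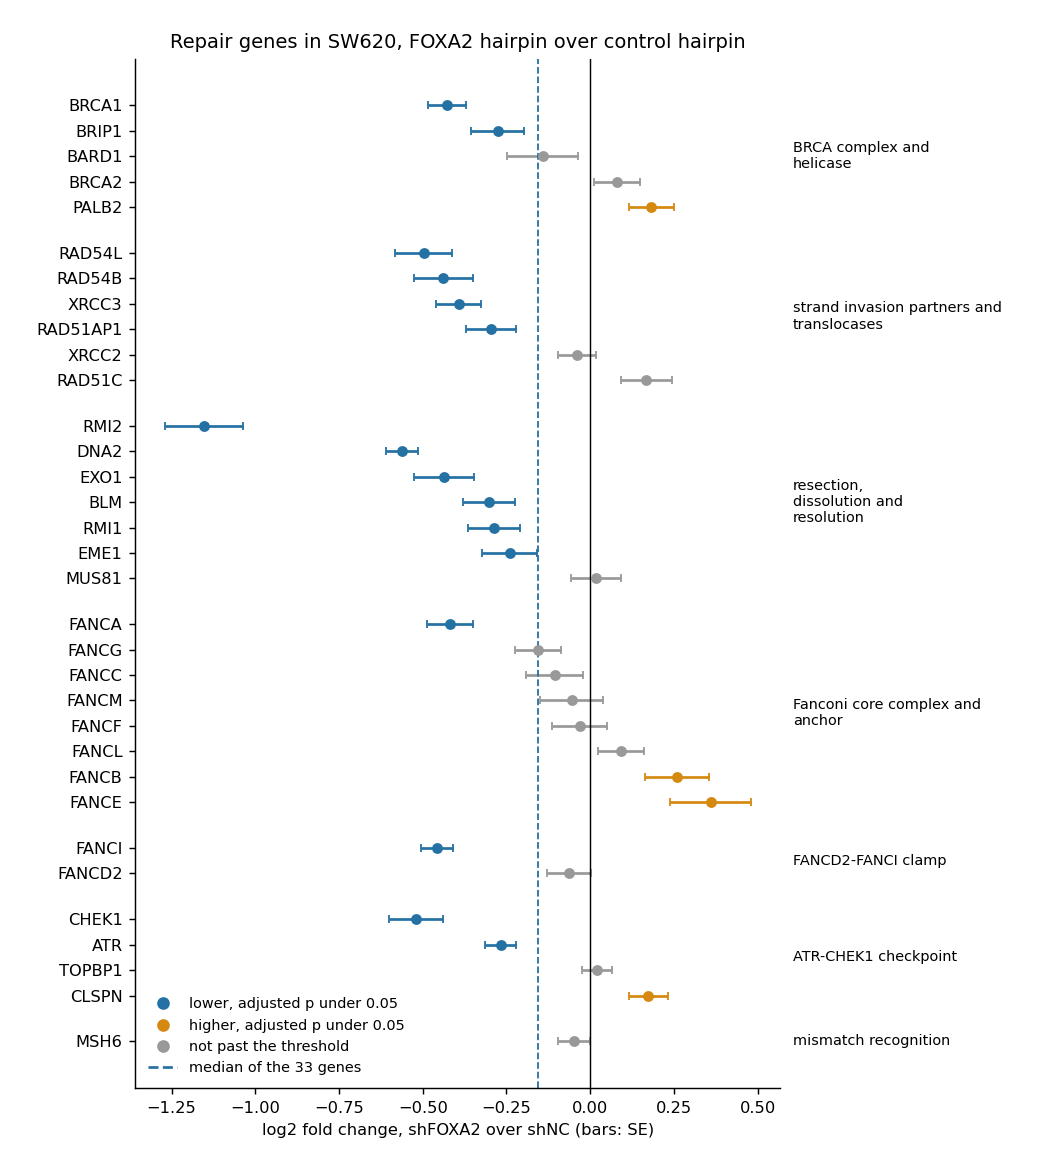
Log2 fold change of the 33 repair genes in SW620, shFOXA2 over shNC, with SE bars, grouped by role. Blue points mark the 16 genes past the threshold that were lower, orange points the 4 that were higher, and grey points the other 13. RMI2 stands at -1.15, and the dashed line is the median of -0.16.

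Cell cycle genes moved in the same libraries. MKI67, a proliferation marker, had 468, 459 and 439.7 CPM in shFOXA2, against 1143, 1092 and 1016 CPM in shNC (log2 fold change -1.25, SE 0.044, adjusted p = 3.79e-25). Of 33 other DNA replication genes 26 fell and 0 rose (0 also at an unadjusted p in edgeR and in DESeq2), around a median log2 fold change of -0.29, and of 30 mitosis genes 23 fell and 1, ANLN (0.25, named after its value was seen), rose, with a median of -0.36. The shares lower were 78.8% and 76.7%, beside 19.8% of all tested genes. The share of mitosis genes higher was 3.33%, beside 19.2% of all tested genes. The replication genes with the smallest p were the helicase subunits MCM3 (-0.58) and MCM7 (-0.43), the polymerase delta subunit POLD1 (-0.76) and the licensing factor CDC6 (-0.58), and among the mitosis genes they were MKI67 and the spindle genes NUSAP1 (-0.59), KIF2C (-0.73) and TPX2 (-0.52). In bulk samples, fewer cycling cells and less RNA per cell cannot be told apart, and the part of the cell cycle genes in the repair gene changes was not tested.

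**Figure D2:**
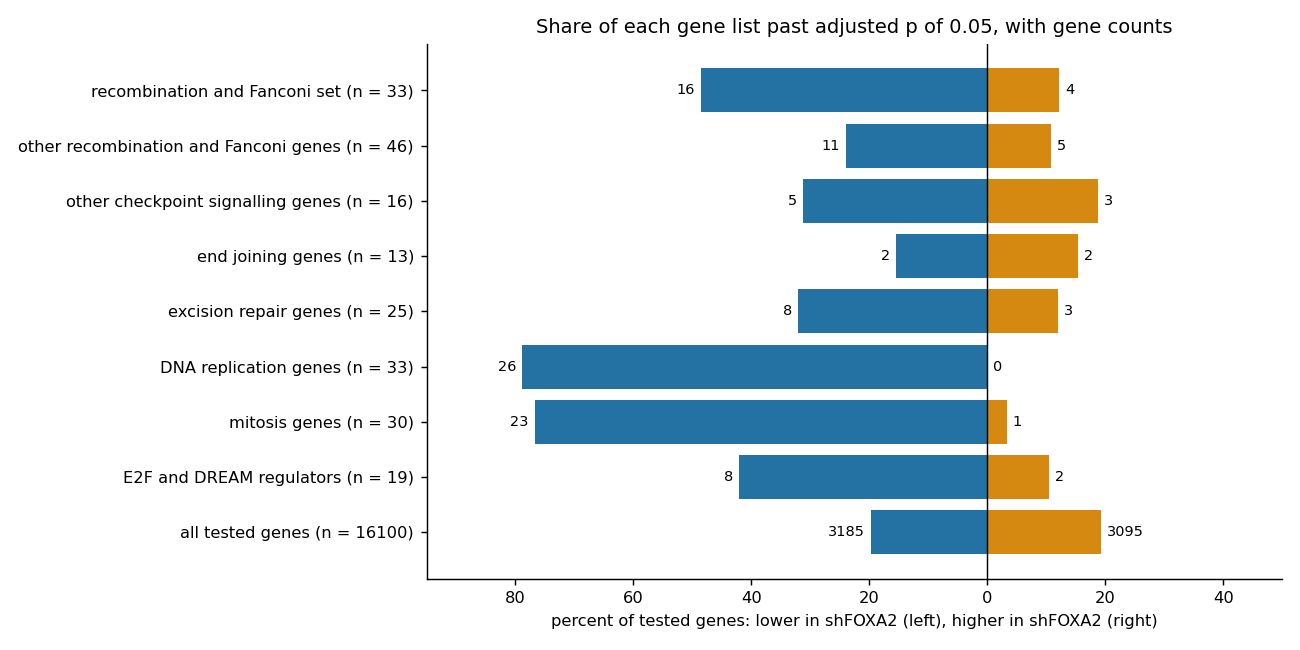
Percent of the tested genes of each list that passed an adjusted p of 0.05, lower in shFOXA2 to the left and higher to the right, with gene counts at the bar ends. The 33 repair genes had 16 lower and 4 higher, against 19.8% and 19.2% of all tested genes.

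The choice of genes did not use their promoters, which were searched for short letter patterns. A window from 250 bases before to 50 bases after the annotated RefSeq start (GRCh38.p14) was at hand for 29 of the 33, the exceptions being DNA2, FANCI, RAD54B and RMI2. An E2F-like match, the spelling TTCGCGC or the spelling TTGGCGC, the spelling TTCCCGC or the spelling TTGCCGC on either strand, overlapping matches included, was found in 19 of 29 (65.5%), against 20.5% of 9914 tested protein-coding genes and 13.1% of all 27305 promoters of that length. E2F factors drive genes of the G1 to S transition. The match was in 8 of 12 genes that fell (66.7%) and in 11 of 17 of the others (64.7%). CCAAT, the box read by NF-Y, was in 14 of 29 (48.3%, against 36.6% of tested protein-coding genes and 35.7% of all promoters), with 8 of 12 genes that fell (66.7%) and 6 of 17 of the others (35.3%), a difference that was not tested. The pattern TTTGAA, the letters of the mitotic CHR element, was in 2 (6.90%, against 9.61% and 15.4%), 1 of 12 that fell and 1 of 17 of the others. A match describes letters only, and an annotated start need not be the start used in these cells. For 25 of the 29 the RefSeq start lay within 500 bases of the gene start in GENCODE v29. That gene start is the outermost annotated one, so closeness to it does not show that the start in use was searched. For the other 4, CHEK1, MUS81, MSH6 and FANCC, the RefSeq start lay 1093 to 109087 bases from the gene start. Of these CHEK1, which fell, and MUS81 had no E2F-like match, while MSH6 and FANCC had at least 1.

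Promoters of 4 genes are shown 5′ to 3′ along the gene, with E2F-like matches in capitals: BLM has 3, the most of the set, while RAD54L (fell), CLSPN (rose) and FANCD2 (no call) have 1 each. Their positions on GRCh38.p14 are chr15:90717096-90717395 on the plus strand for BLM, chr1:46247438-46247737 on the plus strand for RAD54L, chr1:35769929-35770228 on the minus strand for CLSPN and chr3:10026187-10026486 on the plus strand for FANCD2.
BLM: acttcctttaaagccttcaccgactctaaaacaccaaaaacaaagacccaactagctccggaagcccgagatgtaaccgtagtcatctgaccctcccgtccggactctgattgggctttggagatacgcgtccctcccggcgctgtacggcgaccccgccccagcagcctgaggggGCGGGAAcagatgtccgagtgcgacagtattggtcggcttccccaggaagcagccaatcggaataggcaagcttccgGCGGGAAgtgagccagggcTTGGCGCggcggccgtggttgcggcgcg
RAD54L: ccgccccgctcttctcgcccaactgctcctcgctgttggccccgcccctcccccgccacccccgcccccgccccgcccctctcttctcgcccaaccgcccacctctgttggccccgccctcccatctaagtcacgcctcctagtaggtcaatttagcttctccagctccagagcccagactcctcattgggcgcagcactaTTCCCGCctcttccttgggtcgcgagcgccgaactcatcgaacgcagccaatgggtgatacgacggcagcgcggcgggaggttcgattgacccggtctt
CLSPN: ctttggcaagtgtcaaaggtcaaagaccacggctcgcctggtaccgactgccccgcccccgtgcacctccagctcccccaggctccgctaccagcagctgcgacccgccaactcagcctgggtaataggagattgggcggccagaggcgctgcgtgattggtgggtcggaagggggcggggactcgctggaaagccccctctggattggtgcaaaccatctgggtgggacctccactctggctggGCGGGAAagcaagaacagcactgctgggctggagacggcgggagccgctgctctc
FANCD2: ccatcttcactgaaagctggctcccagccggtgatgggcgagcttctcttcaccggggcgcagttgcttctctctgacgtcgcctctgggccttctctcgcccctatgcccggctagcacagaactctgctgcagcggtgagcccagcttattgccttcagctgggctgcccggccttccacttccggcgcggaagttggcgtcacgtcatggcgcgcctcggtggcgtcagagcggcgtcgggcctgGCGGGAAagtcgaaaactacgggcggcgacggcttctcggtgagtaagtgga

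Of the resection, dissolution and resolution genes 6 of 7 fell and none rose (0 higher at an unadjusted p too, in edgeR and in DESeq2), and DESeq2 called 5 lower, without EME1. In edgeR 85.7% of these genes were lower, beside 19.8% of all tested genes (19.2% higher). BLM, RMI1 and RMI2 form, with TOP3A, the complex that untangles joined sister molecules without a crossover. RMI2 (chr16:11249619-11381662, plus strand, GRCh38) had 10.5, 11.3 and 7.61 CPM in shFOXA2, against 22.7, 20.1 and 22.1 CPM in shNC. The shFOXA2 values were well apart from those of shNC (log2 fold change -1.15, SE 0.12, adjusted p = 1.07e-10). RMI1, the other OB-fold subunit, had 28.0, 28.1 and 28.5 CPM in shFOXA2, against 33.6, 35.5 and 34.2 CPM in shNC (log2 fold change -0.29, SE 0.079, adjusted p = 0.00301). BLM, the helicase, had 29.8, 34.2 and 31.9 CPM in shFOXA2, against 40.4, 36.9 and 40.5 CPM in shNC (log2 fold change -0.30, SE 0.078, adjusted p = 0.00162). All 3 were lower in every shFOXA2 library than in any shNC library.

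DNA2 (chr10:68414064-68472121, minus strand, GRCh38), a nuclease and helicase that works with BLM in long-range resection, had 75.7, 81.2 and 75.1 CPM in shFOXA2, against 116, 114 and 112 CPM in shNC. The libraries of each group lay close together and the groups were far apart (log2 fold change -0.56, SE 0.049, adjusted p = 1.25e-12). EXO1, the exonuclease of the parallel resection route, had 23.2, 19.8 and 22.3 CPM in shFOXA2, against 32.5, 29.8 and 26.9 CPM in shNC, also without overlap (log2 fold change -0.44, SE 0.090, adjusted p = 1.06e-04). EME1 and MUS81 form an endonuclease that cuts the joined molecules the BLM complex leaves. EME1 had 34.0, 32.5 and 31.3 CPM in shFOXA2, against 38.5, 43.1 and 34.0 CPM in shNC, with overlapping groups (log2 fold change -0.24, SE 0.081, adjusted p = 0.0164). EME1 no longer passed with shFOXA2 replicate 3 left out (adjusted p = 0.0644 in edgeR), nor with shNC replicate 2 left out (log2 fold change -0.16, adjusted p = 0.176), nor with DESeq2 (adjusted p = 0.0639). MUS81 averaged 37.1 ± 1.16 CPM in shFOXA2 and 36.6 ± 2.34 CPM in shNC (SD, n = 3 each) and was not called (log2 0.017, adjusted p = 0.885 in edgeR).

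**Figure D3:**
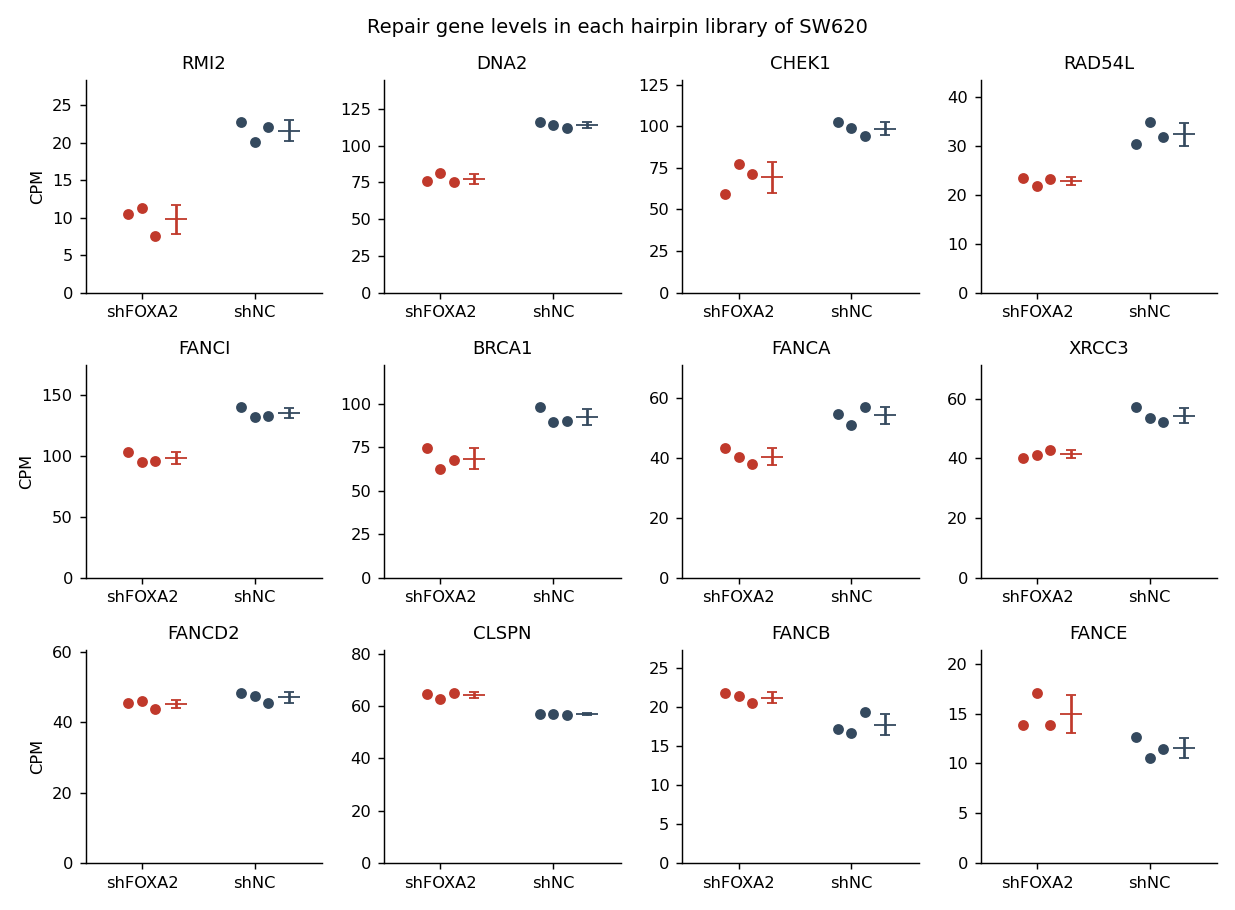
Level in CPM of 12 repair genes in each hairpin library of SW620 (points), with the mean and SD of the 3 libraries beside them. For RMI2, DNA2, CHEK1, RAD54L, FANCI, BRCA1, FANCA and XRCC3 all shFOXA2 points lie below all shNC points, for CLSPN, FANCB and FANCE above them, and for FANCD2 the groups overlap.

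Among genes that act at strand invasion, 4 of 6 fell and none rose in edgeR or DESeq2, with 1, RAD51C, higher at an unadjusted p in edgeR. The share lower was 66.7%, beside 19.8% of all tested genes (19.2% higher). RAD54L, a motor protein that moves along duplex DNA during strand invasion, had 23.5, 21.9 and 23.2 CPM in shFOXA2, against 30.4, 34.9 and 31.9 CPM in shNC (log2 fold change -0.50, SE 0.085, adjusted p = 5.69e-06). Its relative RAD54B had 20.7, 19.4 and 21.6 CPM in shFOXA2, against 29.6, 25.9 and 28.5 CPM in shNC (log2 fold change -0.44, SE 0.088, adjusted p = 8.59e-05). For both motors the highest shFOXA2 value was below the lowest shNC value. XRCC3, which pairs with RAD51C, had 40.2, 41.2 and 42.8 CPM in shFOXA2, against 57.1, 53.6 and 52.3 CPM in shNC (log2 fold change -0.39, SE 0.066, adjusted p = 4.79e-06). RAD51AP1, which stimulates strand invasion, had 32.3, 33.4 and 33.8 CPM in shFOXA2, against 42.4, 38.9 and 40.8 CPM in shNC (log2 fold change -0.30, SE 0.074, adjusted p = 0.0012). XRCC3 and RAD51AP1 were also lower in each shFOXA2 library than in any shNC library.

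RAD51C and XRCC2, which act with XRCC3 in recombination, were not called. RAD51C averaged 44.6 ± 5.20 CPM in shFOXA2 and 39.9 ± 1.71 CPM in shNC (SD, n = 3 each), a log2 fold change of 0.17 that did not pass over all 6 libraries (adjusted p = 0.0744 in edgeR) and did without shFOXA2 replicate 3 (adjusted p = 0.0428). XRCC2 had 63.1, 63.3 and 63.2 CPM in shFOXA2, against 67.2, 63.0 and 64.7 CPM in shNC, with overlapping groups (log2 -0.040, adjusted p = 0.616).

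In the BRCA group 2 of 5 fell (40%) and 1 rose (20%), beside 19.8% and 19.2% of all tested genes. BRCA1 (chr17:43044295-43170245, minus strand, GRCh38), a ubiquitin ligase that promotes resection, had 74.4, 62.6 and 67.9 CPM in shFOXA2, against 97.8, 89.4 and 90.0 CPM in shNC. Every shFOXA2 library was below every shNC library (log2 fold change -0.43, SE 0.057, adjusted p = 7.34e-08). BRIP1, the helicase that binds BRCA1, had 34.5, 33.7 and 31.2 CPM in shFOXA2, against 45.5, 38.2 and 36.9 CPM in shNC (log2 fold change -0.28, SE 0.080, adjusted p = 0.00519). Its groups were apart, and with shNC replicate 1, the highest, left out it did not pass (log2 -0.19, adjusted p = 0.066). BARD1, the ligase partner of BRCA1, averaged 15.2 ± 0.714 CPM in shFOXA2 and 16.7 ± 1.49 CPM in shNC and was not called (log2 -0.14, adjusted p = 0.309). PALB2, which bridges BRCA1 and BRCA2, had 50.8, 50.3 and 49.97 CPM in shFOXA2, against 41.0, 46.7 and 45.5 CPM in shNC (log2 fold change 0.18, SE 0.067, adjusted p = 0.028). All 3 shFOXA2 values were above shNC by a small margin, and PALB2 no longer passed without shFOXA2 replicate 1, 2 or 3 (adjusted p = 0.0704, 0.0588 and 0.0754), without shNC replicate 1 (log2 0.12, adjusted p = 0.218) and with total-count scaling (adjusted p = 0.051). BRCA2, which acts after PALB2, averaged 46.7 ± 2.45 CPM in shFOXA2 and 44.1 ± 2.06 CPM in shNC and was not called (log2 0.081, adjusted p = 0.371).

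In the Fanconi core complex 1 gene fell, 2 rose and 5 were not called, with a median log2 fold change of -0.043. These were 12.5% lower and 25% higher, near the 19.8% and 19.2% of all tested genes. The complex is built of FANCA with FANCG, of FANCB with the ligase subunit FANCL, and of FANCC, FANCE and FANCF, and FANCM anchors it to DNA. FANCA had 43.3, 40.2 and 38.0 CPM in shFOXA2, against 54.7, 51.2 and 56.9 CPM in shNC (log2 fold change -0.42, SE 0.069, adjusted p = 2.93e-06). Its partner FANCG averaged 44.6 ± 4.27 CPM in shFOXA2 and 49.8 ± 1.496 CPM in shNC (SD, n = 3 each), which did not pass over all 6 libraries (log2 -0.16, adjusted p = 0.0728) and did without shFOXA2 replicate 1 (log2 -0.24, adjusted p = 0.00976). FANCB had 21.8, 21.3 and 20.4 CPM in shFOXA2, against 17.2, 16.7 and 19.3 CPM in shNC, above all shNC libraries (log2 fold change 0.26, SE 0.096, adjusted p = 0.0291). FANCB did not pass without shFOXA2 replicate 1, 2 or 3 (adjusted p = 0.107, 0.0638 and 0.0509) or shNC replicate 1 or 2 (adjusted p = 0.0908 and 0.124). FANCE had 13.9, 17.1 and 13.8 CPM in shFOXA2, against 12.6, 10.5 and 11.5 CPM in shNC (log2 fold change 0.36, SE 0.12, adjusted p = 0.0148). Its highest library was shFOXA2 replicate 2 and its lowest shNC replicate 2, and leaving out either ended the call (adjusted p = 0.127 and 0.0812). The remaining subunits were not called. FANCC averaged 28.4 ± 0.630 CPM in shFOXA2 and 30.5 ± 3.22 CPM in shNC (log2 -0.11), FANCF 33.2 ± 1.87 CPM in shFOXA2 and 34.1 ± 3.33 CPM in shNC (log2 -0.031), FANCL 46.9 ± 3.39 CPM in shFOXA2 and 43.8 ± 1.90 CPM in shNC (log2 0.092) and FANCM 19.7 ± 0.966 CPM in shFOXA2 and 20.4 ± 1.12 CPM in shNC (log2 -0.056; SD, n = 3 each).

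Of the clamp subunits FANCI fell and FANCD2 was not called, a difference between them that was not tested. FANCI had 104, 95.6 and 95.9 CPM in shFOXA2, against 140.1, 133 and 133 CPM in shNC, with no overlap (log2 fold change -0.46, SE 0.048, adjusted p = 1.53e-10). FANCD2, its partner, had 45.3, 46.0 and 43.9 CPM in shFOXA2, against 48.4, 47.4 and 45.4 CPM in shNC, with overlapping groups (log2 -0.064, SE 0.066, adjusted p = 0.481). In the checkpoint branch, CHEK1, the kinase that stops the cycle, had 59.2, 77.0 and 71.6 CPM in shFOXA2, against 102, 99.0 and 94.3 CPM in shNC (log2 fold change -0.52, SE 0.080, adjusted p = 2.52e-04). Replicate 1 was the lowest shFOXA2 library, and all 3 were below shNC. ATR, the kinase that activates CHEK1, had 135, 135 and 144 CPM in shFOXA2, against 165, 167 and 166 CPM in shNC (log2 fold change -0.27, SE 0.046, adjusted p = 7.11e-06). CLSPN, the mediator between ATR and CHEK1, had 64.6, 62.9 and 65.2 CPM in shFOXA2, against 57.1, 57.2 and 56.7 CPM in shNC, higher in every shFOXA2 library (log2 fold change 0.17, SE 0.057, adjusted p = 0.0135), but it did not pass without shFOXA2 replicate 3 (adjusted p = 0.0763). TOPBP1, the activator of ATR, averaged 213 ± 8.59 CPM in shFOXA2 and 209.7 ± 5.64 CPM in shNC (log2 0.021, adjusted p = 0.744) and the mismatch sensor MSH6 139 ± 6.29 CPM in shFOXA2 and 143 ± 8.47 CPM in shNC (log2 -0.048, adjusted p = 0.471).

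Hairpin RNAs are known to lower some messages that match them in part, so the 3′ untranslated regions (UTRs) of the set were searched for pieces of its target. The target of hairpin 1 in the labels is shown with bases 11 to 18 in capitals, since they span both pieces, followed by the 2 sites in this set with the matching letters in capitals, both on GRCh38 in GENCODE v29: CHEK1 at chr11:125655633-125655659 on the plus strand and XRCC2 at chr7:152647744-152647770 on the minus strand.
hairpin 1 target: gaacggcatgAACACGTAcat
CHEK1 site: gcttttatacACACGTAtctcattttt
XRCC2 site: gcacaaaaacACACGTAgactgatgga
The pieces, AACACGT and ACACGTA, were singled out in earlier work on these data, so any link of theirs with lower levels is no independent result. Of the 33 genes 2 (6.06%) held one, against 5.37% of 12929 tested genes with an annotated 3′ UTR. CHEK1 fell and XRCC2 was not called, and RMI2 and DNA2 hold neither piece. The part of the site in the CHEK1 value was not tested. The 31 genes without a piece had a median log2 fold change of -0.16, against 0.017 for all searched genes without one. Over all 694 searched genes that hold a piece the median was -0.098. Only these 2 pieces in annotated 3′ UTRs were searched. The part of other partial matches to the hairpin in the values of the 33 genes was not tested.

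Other genes of the same pathways were listed apart from the 33. Of 46 tested, 11 fell and 5 rose, with a median log2 fold change of -0.061. That is 23.9% lower and 10.9% higher, beside 19.8% and 19.2% of all genes. The number higher was 3 without shNC replicate 3. The smallest p-values belonged to USP1, the protease that takes ubiquitin off FANCD2 (86.8 ± 4.25 CPM in shFOXA2 and 128 ± 5.21 CPM in shNC; log2 fold change -0.57, SE 0.049, adjusted p = 6.77e-13), BABAM1 of a BRCA1-binding complex (-0.55), STRA13, a partner of FANCM (-0.45), and SLX1A, a nuclease subunit with a near-identical copy whose reads may be shared (-0.37). The genes that rose were NBN (0.17), RAD50 (0.19), SFR1 (0.22), ZSWIM7 (0.35) and the nuclease ERCC4 (0.47), named after their values were seen.

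Of 16 other checkpoint genes, 5 fell and 3 rose (median log2 fold change 0.075). These were 31.25% and 18.75%, beside 19.8% and 19.2% of all tested genes. The fork protection factor TIMELESS fell (79.99 ± 1.86 CPM in shFOXA2 and 132 ± 4.04 CPM in shNC; log2 fold change -0.72, SE 0.047, adjusted p = 2.16e-16). The phosphatase CDC25A (0.49), a target of CHEK1, the clamp loader RAD17 (0.36) and the break-sensing kinase ATM (0.25) rose. Without shFOXA2 replicate 2 the number higher was 5.

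The untreated lines were set side by side to ask how the genes stand in SW620 and SW480 without a hairpin. With 1 library each there was no replicate check and no test, and each range given in brackets is an exact 95% confidence interval of the fold that covers counting error only. Most of the 33 genes were at like levels: 27 were within 1.5-fold, 4 were higher in SW620 by 1.5-fold or more and 2 were lower by as much. Among the 21343 genes that reached 20 counts in SW620 or SW480, 16.7% were so much higher and 17.5% so much lower, and the median log2 ratio was 0.10 for the 33 genes and 0.024 for all genes, with 1 CPM added to each library.

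DNA2 stood out, with 12780 counts in SW620 and 1724 in SW480, or 131 CPM in SW620 and 24.3 CPM in SW480 (5.40-fold higher, 5.13 to 5.68). FANCD2 came next, with 69.4 CPM in SW620 and 31.3 CPM in SW480 (2.22-fold higher, 2.11 to 2.33), while its partner FANCI had 188 CPM in SW620 and 165 CPM in SW480 (1.14-fold higher, 1.12 to 1.17). FANCF (1.57-fold higher, 1.47 to 1.68) and RAD54B (1.55-fold higher, 1.45 to 1.65) were the others past 1.5-fold, with intervals that reach below that level. In the other direction, RAD51AP1 had 37.6 CPM in SW620 and 78.6 CPM in SW480 (2.09-fold lower, 2.01 to 2.18) and BRCA2 64.5 CPM in SW620 and 126 CPM in SW480 (1.95-fold lower, 1.89 to 2.02). RAD51C (1.44-fold lower, 1.37 to 1.504) and MSH6 (1.45-fold lower, 1.42 to 1.48) were the next lowest in SW620. All 4 checkpoint genes were somewhat higher in SW620, at 1.38-fold for TOPBP1, 1.27 for CLSPN, 1.24 for CHEK1 and 1.23 for ATR. RMI2 was at 28.4 CPM in SW620 and 25.4 CPM in SW480 (1.12-fold higher, 1.05 to 1.19), and BRCA1 at 119 CPM in SW620 and 112 CPM in SW480 (1.06-fold higher, 1.03 to 1.09).

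**Figure D4:**
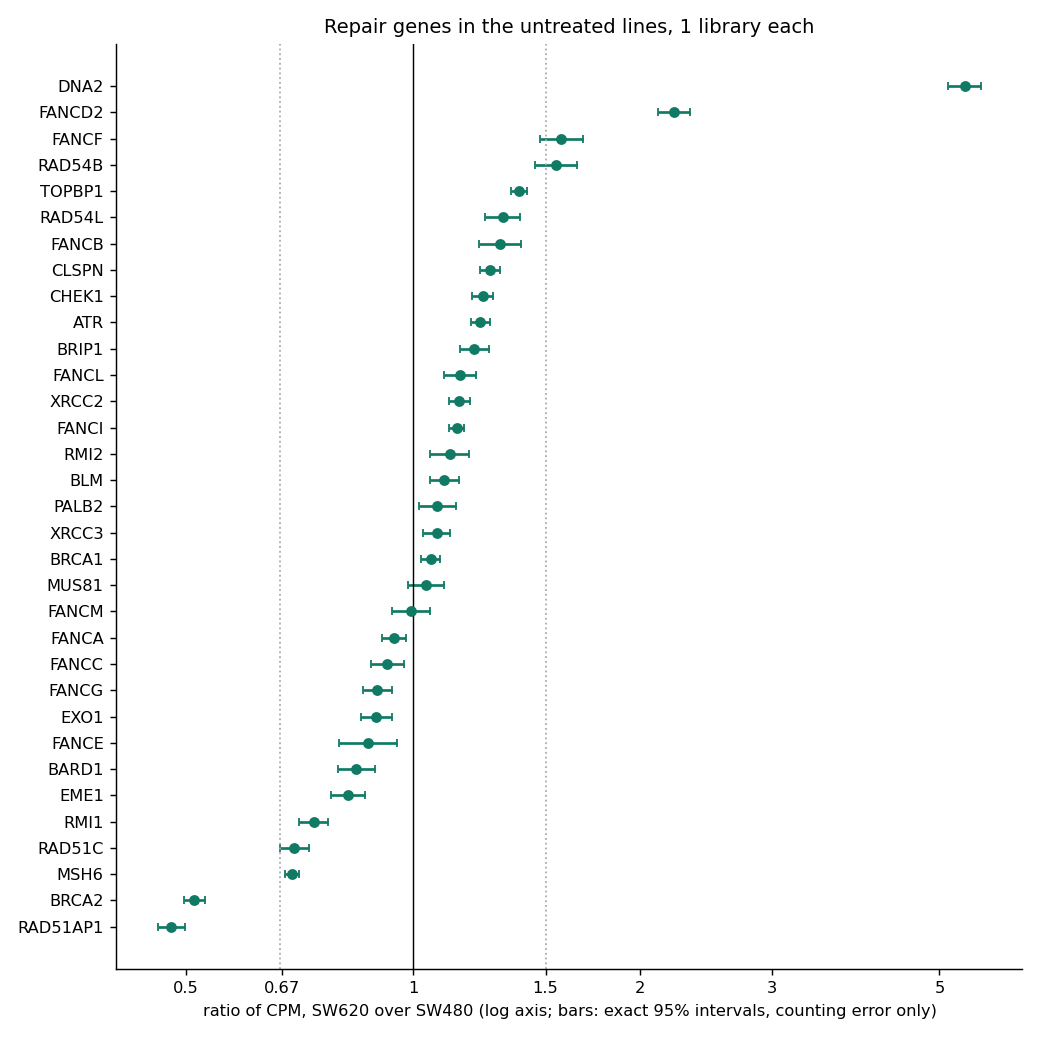
Ratio of CPM in untreated SW620 over untreated SW480 for the 33 genes, 1 library each, on a log axis, with exact 95% intervals for counting error and dotted lines at 1.5-fold either way. DNA2 lies at 5.40 and RAD51AP1 at 0.478.

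The 2 comparisons share no library. FOXA2 itself had 7882 counts in SW620 and 319 in SW480. Of the 4 genes higher in SW620 by 1.5-fold, DNA2 and RAD54B fell with the FOXA2 hairpin and FANCD2 and FANCF were not called. RAD51AP1, lower in SW620 than in SW480, also fell with the hairpin, whereas BRCA2, lower in SW620 too, was not called. Across the 33 genes Pearson's r between the log2 ratio and the log2 fold change was -0.21 and Spearman's rho -0.15, given as a description over genes that are not independent of each other.

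**Figure D5:**
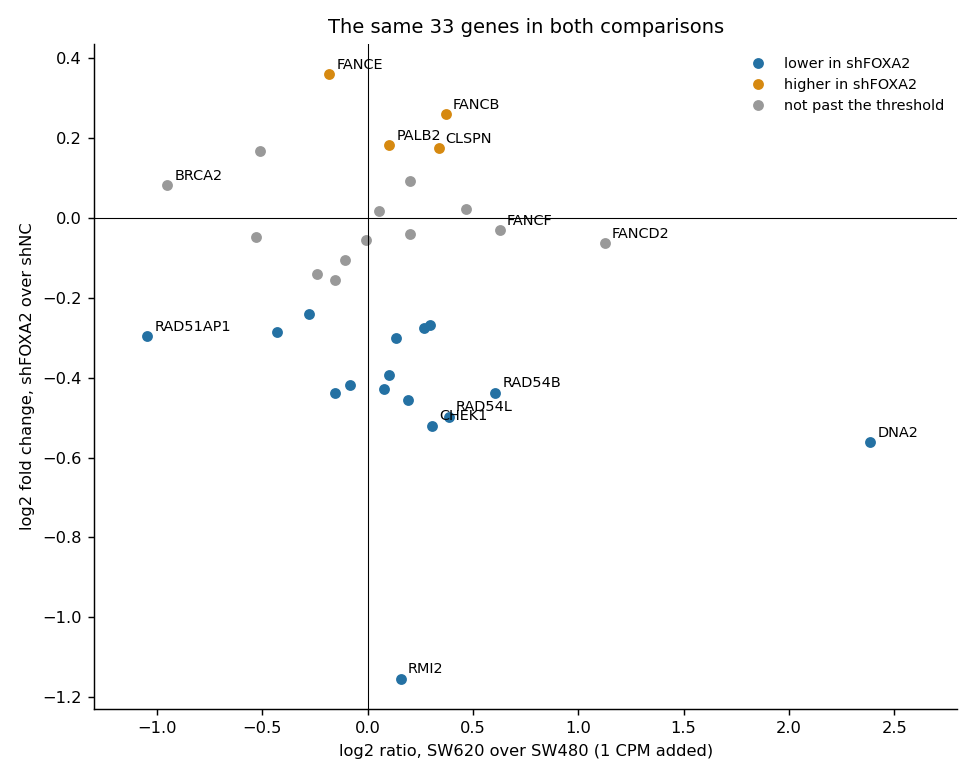
Log2 ratio of SW620 over SW480 (1 CPM added, 1 library each) against log2 fold change of shFOXA2 over shNC for the 33 genes. DNA2 lies far to the right, RMI2 far down, and the 4 genes that rose with the hairpin lie within 1.5-fold between the lines.

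Per length, in the deposited RPKM, which is set by gene length and library total, the median of the 33 genes in shNC was above that of all tested genes. Their mean levels in shNC ran from 2.41 to 32.2 RPKM with a median of 9.83, against a median of 5.65 over all tested genes. TOPBP1 was most abundant in shFOXA2 (32.4 ± 1.45 RPKM), shNC (32.2 ± 0.666 RPKM, SD, n = 3 each) and SW620 (30.9 RPKM), but not in SW480, where RAD51AP1 led at 30.0 RPKM. FANCM was lowest in all 8 libraries, at 2.31 RPKM in shFOXA2 and 2.41 in shNC on average. DNA2 changed place most: it ranked as high as 2 of 33 in a library and ranked 30 in SW480, with 15.3 RPKM in shFOXA2, 22.7 in shNC, 26.6 in SW620 and 4.76 in SW480. RMI2 had 3.58 RPKM in shFOXA2, 8.001 in shNC, 10.7 in SW620 and 9.21 in SW480. RPKM is not adjusted for composition, and mitochondrial genes took 4.46% to 4.82% of counts in the hairpin libraries, 11.1% in SW620 and 11.7% in SW480.

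Reads of some of these genes can be shared with neighbours, since the sources do not say whether counting used strand. In GENCODE v29, 19 of the 33 share exon bases with another annotated gene, 10 of them with a protein-coding gene on the opposite strand and 2 with one on the same strand. The longest are XRCC3 with KLC1 (5756 bases; KLC1 log2 fold change -0.086), RAD54B with FSBP on the same strand (3139 bases; -0.42) and FANCA with ZNF276 (2302 bases; -0.018). Of the shorter ones, MUS81 shares 759 bases with CFL1, which had 1230 CPM in shFOXA2 and 1073 in shNC (log2 0.20). EME1 shares 541 with LRRC59 (206 and 232 CPM, log2 -0.17). FANCD2 shares 261 with FANCD2OS (17.1 and 4.63 CPM, log2 1.96, not called). The part of neighbours in the values of these genes was not tested. RAD51AP1 and FANCD2 have annotated pseudogenes, RAD51AP1P1 and FANCD2P2. Among the 14 genes with no shared exon bases, 6 fell and 2 rose, with a median log2 fold change of -0.15. Of all tested genes 19.8% were lower and 19.2% higher.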

How the data were processed

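Each library's deposited table holds raw counts, a gene length and RPKM for 42713 Ensembl genes. The deposited RPKM equals the authors' count divided by length and library total, within a relative tolerance of 1e-04 for genes above 20 counts. The submitters' processing notes name HOMER and hg19 without their roles, while the sources used here do not name an aligner, a counting tool or a gene annotation, nor say whether counting used strand (the kit is directional, per the labels). For a repeated symbol the entry with the most counts was used. Hairpin libraries were compared, 3 against 3, in edgeR 4.0.16 (R 4.3.3; TMM scaling, default expression filter, robust two-sided quasi-likelihood test, Benjamini-Hochberg adjustment over all genes). Every adjusted p comes from it unless another tool is named. The SE is the log2 fold change divided by the square root of F. SW620 and SW480 were compared as TMM-scaled CPM.

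The genes, lists and tests were chosen with earlier results of these data known. Named genes are all 33, FOXA2, MKI67 and up to 4 called genes of each other list by p, of which 2 genes are not reported here. Alternatives were other scalings, filters, tests (DESeq2 1.42.0, limma 3.58.1 voom), thresholds, a block on replicate number, leaving out single hairpin libraries, and, for the lines, other pseudocounts, folds and count minimums. Total counts were 7478411 to 95935348 per library, so that 3 counts equal 0.401 CPM at the lowest and 0.0313 CPM at the highest depth. Libraries of 1 group differed by more than counting noise (chi-square per degree of freedom 1.67 to 4.59). In both groups replicates 2 and 3 were the closest (1.67 in shFOXA2 and 1.74 in shNC). Pairs with replicate 1 stood at 3.97 to 4.59. The fits were also run on simulated counts with known changes in far fewer genes than were called here. That run checked the working of the code only, and no result above rests on it. Promoters are RefSeq's (GRCh38.p14), UTRs and exons GENCODE v29's (GRCh38). Other steps ran in Python 3.11.15 (scipy 1.17.1, pandas 2.3.3, numpy 2.4.6; figures in matplotlib 3.10.9).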

Additional observations from a re-analysis of the deposited data

How the results depend on the processing

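The call of 16 genes lower of the 33 stayed within 1.5 times under every alternative except the test against a 1.2-fold change, which left 7 lower and 0 higher of the 33 and 2202 of all genes. That test asks for more than any difference from 0. Under it 7.28% of all tested genes were lower and 6.40% higher. In it the lists had 4 lower and 1 higher (recombination and Fanconi), 1 lower and 1 higher (checkpoint), 1 lower and 0 higher (end joining), 0 lower and 0 higher (mismatch), 5 lower and 1 higher (excision), 12 lower and 0 higher (replication), 14 lower and 0 higher (mitosis), 5 lower and 0 higher (E2F) and 0 lower and 1 higher (colon). Genes higher among the 33 numbered 1 with no filter on low counts, 0 with DESeq2 and 0 at an adjusted p under 0.01, where the full result was 4. The median log2 fold change of the 33 was -0.19 with no filter. For these the cause was not tested. End joining genes higher numbered 1 with total counts and 1 with no filter, and both counts were 1 with DESeq2 and 1 at 0.01. At 0.01 the colon list had 1 lower and 2 higher. Same-numbered hairpin libraries did not deviate together (correlations -0.047 to -0.0044), which does not settle whether they were made in pairs. With the replicate block 16 of the 33 were lower, 4 higher, and 6139 of all genes were called, and the block changed 2 counts by over 1.5 times, end joining lower to 1 and colon higher to 2.

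With each library left out in turn, the 33 had 15 to 17 lower and 1 to 4 higher and a median of -0.24 to -0.15. All genes called ran from 5299 to 5872. Over the same fits the counts higher were 3 to 5 (recombination and Fanconi), 3 to 5 (checkpoint), 1 to 2 (end joining) and 2 to 4 (colon), and the counts lower 1 to 2 (end joining) and 1 to 3 (colon). Of genes with no call, the sign turned for MUS81 with no filter (-0.014), without shFOXA2 replicate 2 (-0.0079) and without shNC replicate 1 (-0.045), for TOPBP1 with no filter (-0.0093), without shFOXA2 replicate 3 (-0.022) and without shNC replicate 2 (-0.0019), and for FANCF without shFOXA2 replicate 2 (0.0058) and without shNC replicate 3 (0.047). Over the fits with a library left out, the log2 fold change ran from -0.045 to 0.056 for MUS81, -0.022 to 0.049 for TOPBP1 and -0.097 to 0.047 for FANCF. Between the lines, a 2-fold threshold left 2 genes higher and 1 lower in SW620, and a threshold midway between equal levels and 1.5-fold gave 8 higher and 5 lower. Scaling, pseudocount, count minimum and repeated symbols kept those counts within 1.5 times.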

Other observations

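Base and nucleotide excision repair genes, which mend damaged bases rather than breaks, had 8 lower and 3 higher of 25 (median log2 fold change -0.059) in shFOXA2. These were 32% and 12%, beside 19.8% and 19.2% of all tested genes. XRCC1, the scaffold of single-strand break repair, averaged 21.7 ± 0.875 CPM in shFOXA2 and 38.2 ± 2.18 CPM in shNC (SD, n = 3 each; log2 fold change -0.81, SE 0.082, adjusted p = 7.39e-11). The uracil glycosylase UNG averaged 68.9 ± 1.71 CPM in shFOXA2 and 115 ± 3.61 CPM in shNC (log2 fold change -0.74, SE 0.050, adjusted p = 4.57e-16), and the abasic-site endonuclease APEX1 also fell (-0.33). The thymine glycosylase TDG rose (85.8 ± 5.99 CPM in shFOXA2 and 61.9 ± 3.65 CPM in shNC; log2 fold change 0.47, SE 0.058, adjusted p = 8.52e-09). End joining genes had 2 lower and 2 higher of 13 (median log2 fold change 0.064), with C9orf142 (-0.70) and XRCC4 (-0.26) lower and PRKDC, the large end joining kinase (0.24), and NHEJ1 (0.25) higher. These were 15.4% either way, no more than the 19.8% and 19.2% of all tested genes. The NHEJ1 call held with 1 of the 6 libraries left out, shFOXA2 replicate 1, and was lost with each of the others (adjusted p of 0.0551 to 0.202 in edgeR), with total counts (0.056), with no filter (0.127) and with DESeq2 (0.134). XRCC4 did not pass in 4 of the 6 fits with a library left out, with adjusted p-values of 0.0644 (shFOXA2 replicate 1 left out), 0.194 (shFOXA2 replicate 3), 0.0607 (shNC replicate 2) and 0.179 (shNC replicate 3), nor with the replicate block (0.0577) or DESeq2 (0.138). The list's higher count was 1 without shFOXA2 replicate 2 or shNC replicate 2, and its lower count was 1 without shFOXA2 replicate 3 or shNC replicate 2 or 3.

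E2F factors and their repressor complexes, which set the level of many S phase genes, had 8 lower and 2 higher of 19 (median log2 fold change -0.16). These were 42.1% and 10.5%, beside 19.8% and 19.2% of all tested genes. E2F2 averaged 7.67 ± 1.35 CPM in shFOXA2 and 15.3 ± 1.59 CPM in shNC (SD, n = 3 each; log2 fold change -1.01, SE 0.13, adjusted p = 4.81e-08), E2F1 56.0 ± 1.28 CPM in shFOXA2 and 74.9 ± 0.889 CPM in shNC (log2 -0.42) and E2F3 43.5 ± 2.42 CPM in shFOXA2 and 57.1 ± 3.08 CPM in shNC (log2 -0.40), and MYBL2 fell by 0.51 on the log2 scale. E2F5 (0.28) and RB1 (0.27), named after their values were seen, rose. In the colon epithelial list 3 genes were lower and 4 higher of 10, with the gut factor CDX2 (0.69) and the microvillus protein VIL1 (0.26) higher and ELF3 (-0.23) and KRT19 (-0.13) lower. Shares in this list were 30% lower and 40% higher, beside 19.8% and 19.2% of all tested genes. Without shFOXA2 replicate 1 the lower count was 1 (KRT19 adjusted p = 0.0672 in edgeR), and without shFOXA2 replicate 2 or 3 or shNC replicate 2 or 3 the higher count was 2. Only 5 of the 13 fibroblast, endothelial and leukocyte markers passed the filter on low counts. Of these 5, 0 were lower and 3 higher (60%), beside 19.8% and 19.2% of all tested genes.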
